A study of Mus musculus with 4 samples.

Results

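Interferon response genes are the genes that cells switch on when interferons, the cytokines of antiviral defence, reach their receptors. The 34 genes described here were taken from a list of such genes, and each was represented by its probe set of highest mean signal over the 4 arrays. A probe set naming that gene alone was found for 32 of them, out of 18194 genes named on the array. Isg15 and Ifi44 were not analysed here, because the 1 probe set that names Isg15 names a second gene as well and no probe set was matched to Ifi44.

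The RNA came from livers of C57BL/6J mice that were 2 months old. Each mouse had a first exposure of 2 intraperitoneal injections 24 h apart and, after 7 days, a second exposure 5 h before the liver was taken. Each exposure was either ethylbenzene, an aromatic solvent, at 7 mmol per kg or phosphate-buffered saline (PBS). The groups were PBS then PBS (P+P, 3 mice), ethylbenzene then PBS (E+P, 3 mice), PBS then ethylbenzene (P+E, 5 mice) and ethylbenzene then ethylbenzene (E+E, 5 mice). Within a group the mice were pooled into 1 RNA sample on 1 Affymetrix array, so there is no spread between mice, no standard deviation and no test. Pool size goes with the second exposure, and their effects cannot be told apart.

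All 8 hepatocyte markers measured, Alb and Ttr among them, were on every array above 142.3, the median signal of all probe sets, which serves as a floor. The P+P array stood apart by its controls. For 18S ribosomal RNA, 3 probe sets had a geometric mean of 1872 there and 122 to 182 on the others. Its ratio of 3' to 5' signal for the Pcx control was 23.5, against 6.15 to 12 on the others. P+P is the control of P+E against P+P and of E+P against P+P, whereas E+E against E+P and E+E against P+E do not use it. The part of these differences in the ratios that use P+P was not tested.

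Type I interferons bind the receptor subunits encoded by Ifnar1 and Ifnar2. The kinases JAK1 and TYK2 then start a signal that brings STAT2 and IRF9, in one complex, to the interferon-stimulated response element in the promoters of target genes. Interferon gamma acts through the receptor of Ifngr1 and Ifngr2 and through gamma-activated sites in promoters. The products of the target genes sense viral RNA, block viral replication, attack vacuoles that hold microbes, or cut and transport peptides for display to T cells. In the liver, hepatocytes, endothelial cells and macrophages can all respond.

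Signals are given after quantile normalization, in arbitrary units, and compared only within a gene. Signals under 142.3, the median of all probe sets, count as near background and were set to this floor before a ratio was taken. A fold against such a signal is a lower bound, written as "at least". A gene was called where its arrays differed at least 2-fold, which is 1 on the log2 scale. This rule of size describes 2 arrays, not the treatments in general. Of the 32 measured members, 26 were above the floor on every array, 31 had a mean at or above it and none was below it on all 4.

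**Figure D1:**
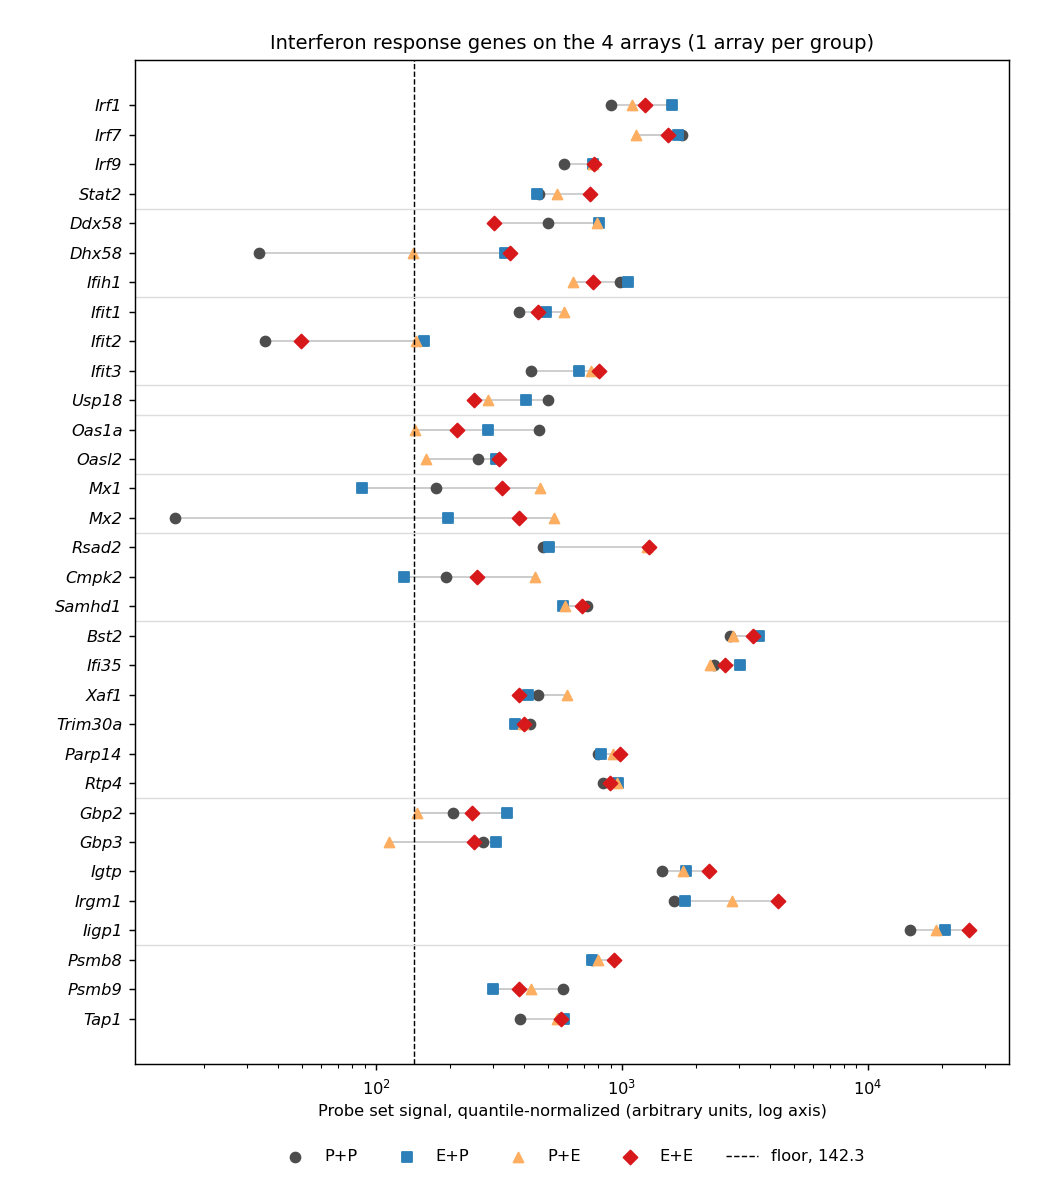
Quantile-normalized signal (arbitrary units, log axis) of 32 interferon response genes on the 4 arrays, with 1 point per array of pooled RNA, genes ordered by role and separated by grey lines, and the floor of 142.3 as a dashed line. The points of 22 genes lie within 2-fold of each other once low signals are set to the floor, and Mx1, Mx2, Rsad2 and Cmpk2 have their highest signals on the P+E and E+E arrays.

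With low signals set to the floor, the highest array was less than 2-fold above the lowest in 22 of the 32 interferon response genes. In the other 10 it was at least 2-fold above. Among the 11182 genes with a mean signal at or above the floor, 27.5% reached 2-fold by this measure. Ifit2 is among the 22, at 1.1-fold, although its signals before the floor ran from 35.5 to 156.6. E+E was the highest array for 11 members, E+P for 10, P+P for 6 and P+E for 5. In the same order, these arrays were the highest for 23.5%, 25.7%, 28.6% and 22.3% of the 11182 genes. P+P was the lowest for 16 members and for 20.9% of the 11182 genes.

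Whether liver switched on these genes 5 h after ethylbenzene was read from P+E against P+P, in mice given PBS first, and from E+E against E+P, in mice given ethylbenzene first. The pairs of log2 ratios in the paragraphs on the second exposure follow that order, and these ratios share no array. After ethylbenzene 4 members were at least 2-fold higher and 1 was lower in the first ratio. The second ratio had 3 higher and 1 lower. Over all genes the first ratio had 4.07% called higher and 4.05% lower, while the second had 4.28% and 4%. Over the 11182 genes at or above the floor the shares were 6.37% and 6.46%, then 6.74% and 6.46%. The median log2 ratio of the members was 0.20 and 0.03, against 0.00 and 0.00 for all genes and -0.07 and -0.05 for those at or above the floor. In both ratios Rsad2 and Mx1 were called higher and no member was called lower, where 3.07% of the 11182 genes were called higher in both and 2.1% lower. Just inside the rule were Cmpk2, 2.3-fold higher in the first ratio, and Mx1, at 1.19 on the log2 scale in the second, and just outside it Gbp3 at -0.94 in the first and Mx2 at 0.96 in the second.

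The nucleotide metabolism genes held 2 of the higher genes. Rsad2 encodes viperin, an enzyme that makes a chain-terminating nucleotide. Its signal was 478.4 for P+P, 506.5 for E+P, 1269 for P+E and 1290 for E+E. Both arrays after ethylbenzene stood well above both arrays after PBS, by 2.65-fold and 2.55-fold. The other 2 probe sets of Rsad2 pointed the same way, with log2 ratios of 1.59 and 0.75 for one and 0.56 and 1.26 for the other. Cmpk2, the neighbour of Rsad2 on the chromosome, encodes a mitochondrial nucleotide kinase that supplies viperin's substrate. It read 192.6 for P+P, 130.5 for E+P, 443.3 for P+E and 257.5 for E+E. That is 2.3-fold higher in the first ratio and at least 1.81-fold, short of the rule, in the second. Its other probe set lay near the floor, at 0.23 and 0.00. Samhd1, which degrades nucleotides that viruses need, was at 724.5 for P+P, 575.2 for E+P, 588.8 for P+E and 689.3 for E+E, and these 4 values do not sort by the second exposure.

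Mx1 and Mx2 encode dynamin-like GTPases that restrict viruses, and common laboratory strains such as C57BL/6 carry defective alleles of Mx1. The Mx1 signal was 175.6 for P+P, 87.9 for E+P, 463.1 for P+E and 325.2 for E+E. The first ratio was 2.64-fold and the second at least 2.29-fold. Mx2 gave 15.2 for P+P, 196.2 for E+P, 527.5 for P+E and 382.5 for E+E. Its first ratio was at least 3.71-fold and its second was 1.95-fold, just under the rule, and past it at 1.07 on the log2 scale with the deposited signals. Both genes were higher on both ethylbenzene arrays, and their E+E signal was below their P+E signal by less than 2-fold. Each gene has 1 probe set, and signal shared between these related genes was not tested.

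Irgm1 encodes an immunity-related GTPase that regulates the GTPases attacking pathogen vacuoles. Its signal was 1633 for P+P, 1815 for E+P, 2805 for P+E and 4314 for E+E. The second exposure gave 1.72-fold in mice given PBS first and 2.38-fold in mice given ethylbenzene first. Its relative Igtp was at 1460 for P+P, 1816 for E+P, 1766 for P+E and 2262 for E+E, under 2-fold in every ratio. Iigp1, an abundant effector GTPase, was at 14818 for P+P, 20564 for E+P, 19012 for P+E and 25874 for E+E, with log2 ratios of 0.36 and 0.33 for the second exposure. The guanylate-binding protein genes had ratios below 0. Gbp2 was at 205.8 for P+P, 342.0 for E+P, 146.8 for P+E and 244.9 for E+E, and Gbp3 at 272.4 for P+P, 307.6 for E+P, 112.7 for P+E and 251.4 for E+E. Their log2 ratios were -0.49 and -0.48 for Gbp2 and -0.94 and -0.29 for Gbp3. The P+E signal of Gbp3 was below the floor, so its first ratio is a lower bound in size, and it was -1.27 with the floor at the 25th percentile and -1.02 with a pseudocount in place of a floor. The second probe set of Gbp2 had the opposite sign, at 0.43 and 1.07.

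The oligoadenylate synthetase genes and Usp18 were not among the higher genes. Oas1a encodes a synthetase whose product activates the RNA-cutting enzyme RNase L. Its signal was 461.3 for P+P, 284.4 for E+P, 143.5 for P+E and 213.4 for E+E. P+E, just above the floor of 142.3, was 3.21-fold below P+P, and E+E was 1.33-fold below E+P. Oasl2 of the same family was at 260.4 for P+P, 307.8 for E+P, 160.4 for P+E and 316.7 for E+E, lowest on P+E as Oas1a was. Usp18, which removes ISG15 from proteins and blocks the type I receptor, was at 499.2 for P+P, 408.6 for E+P, 284.9 for P+E and 250.8 for E+E. It was 1.75-fold and 1.63-fold lower after ethylbenzene, under the rule in each, with the PBS arrays above the ethylbenzene arrays.

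The transcription factors of the pathway stayed within 2-fold. Stat2 and Irf9 encode parts of the complex that binds the response element. Stat2 was at 460.7 for P+P, 452.1 for E+P, 544.3 for P+E and 738.9 for E+E, and Irf9 at 584.2 for P+P, 766.7 for E+P, 764.6 for P+E and 771.9 for E+E. Irf7, which amplifies interferon production, was at 1761 for P+P, 1691 for E+P, 1140 for P+E and 1546 for E+E. Irf1, which responds strongly to interferon gamma, was at 906.7 for P+P, 1593 for E+P, 1101 for P+E and 1238 for E+E. Across these 4 genes the log2 ratios ran from -0.63 to 0.39 in mice given PBS first and from -0.36 to 0.71 in mice given ethylbenzene first. The P+E and E+E signals were the highest of Stat2 and the lowest of Irf7, while Irf1 and Irf9 did not sort by the second exposure. The other probe set of Stat2 did not sort by it either. It read 251.8 for P+P, 342.8 for E+P, 252.2 for P+E and 423.9 for E+E, with log2 ratios of 0.00 and 0.31.

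The RIG-I-like helicases sense viral RNA in the cytoplasm. Ddx58 encodes RIG-I, and its signal was 499.5 for P+P, 807.3 for E+P, 794.1 for P+E and 302.7 for E+E. The second exposure gave opposite signs, 0.67 and -1.42, so that E+E was 2.67-fold below E+P. Of its other probe sets, one was below the floor on every array and one gave -0.96 and -0.90. Ifih1, which encodes MDA5, was at 981.3 for P+P, 1057 for E+P, 633.7 for P+E and 760.0 for E+E, or -0.63 and -0.48. Dhx58 encodes LGP2, which tunes the other sensors, and it did not sort by the second exposure (0.00 and 0.07). Its P+P and P+E signals were both below the floor, and with the floor at the 25th percentile its first ratio was 1.71.

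The IFIT genes, often used as markers of interferon, were not called in any ratio. Ifit1, whose product binds viral RNA that lacks the host's cap marks, was at 381.8 for P+P, 490.8 for E+P, 582.0 for P+E and 457.8 for E+E. Ifit3, its partner, was at 428.3 for P+P, 670.3 for E+P, 749.0 for P+E and 806.5 for E+E, and all 3 other arrays stood above P+P. Ifit2 was at or near background, at 35.5 for P+P, 156.6 for E+P, 145.2 for P+E and 49.3 for E+E. The log2 ratios of the 3 ran from 0.03 to 0.81 in the first ratio and from -0.14 to 0.27 in the second. Those of Ifit2 are lower bounds in size, and with the floor at the 25th percentile they were 1.75 and -1.67, past the rule in opposite directions.

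The remaining induced effectors were not called in any ratio. Bst2, which encodes the tetherin that holds virions at the cell surface, was at 2756 for P+P, 3617 for E+P, 2822 for P+E and 3410 for E+E. Ifi35 was at 2372 for P+P, 3038 for E+P, 2291 for P+E and 2636 for E+E. Rtp4 was at 841.7 for P+P, 962.2 for E+P, 955.8 for P+E and 891.9 for E+E. For these 3 the second exposure moved the signal of the probe set used by 1.15-fold or less. Ifi35 was at -0.05 and -0.20, and its other probe sets had the opposite sign, at 0.32 and 0.40, and at 0.11 and 0.13. Xaf1, which promotes cell death, was at 456.6 for P+P, 415.8 for E+P, 598.5 for P+E and 382.4 for E+E. The ubiquitin ligase gene Trim30a was at 423.5 for P+P, 368.4 for E+P, 397.3 for P+E and 399.4 for E+E. Parp14, an ADP-ribosyltransferase gene, was at 797.8 for P+P, 821.2 for E+P, 924.0 for P+E and 983.7 for E+E. Together with Bst2, Ifi35 and Rtp4 they had median log2 ratios of 0.11 and -0.10.

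The immunoproteasome subunit genes Psmb8 and Psmb9 and the peptide transporter gene Tap1 serve the display of peptides on MHC class I. Psmb8 was at 754.3 for P+P, 756.8 for E+P, 796.6 for P+E and 925.7 for E+E. Psmb9 was at 576.2 for P+P, 299.2 for E+P, 427.6 for P+E and 382.5 for E+E, highest on P+P. Tap1, the neighbour of Psmb9 that is transcribed away from it, was at 384.2 for P+P, 579.3 for E+P, 543.6 for P+E and 565.2 for E+E, lowest on P+P. None of the 3 was called, and they did not share an order over the arrays.

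Rsad2 and Irgm1 kept their calls under every alternative tried that gave a value. Each other call was lost under at least 1 alternative. With the floor raised to 418.9, the 75th percentile, the first-ratio values became 0.14 for Mx1, 0.33 for Mx2, 0.08 for Cmpk2 and -0.14 for Oas1a, and the second-ratio values 0.00 for Mx1 and -0.95 for Ddx58. With the mean of all probe sets of a gene, Cmpk2 was at 0.72 and Ddx58 at -0.77.

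**Figure D2:**
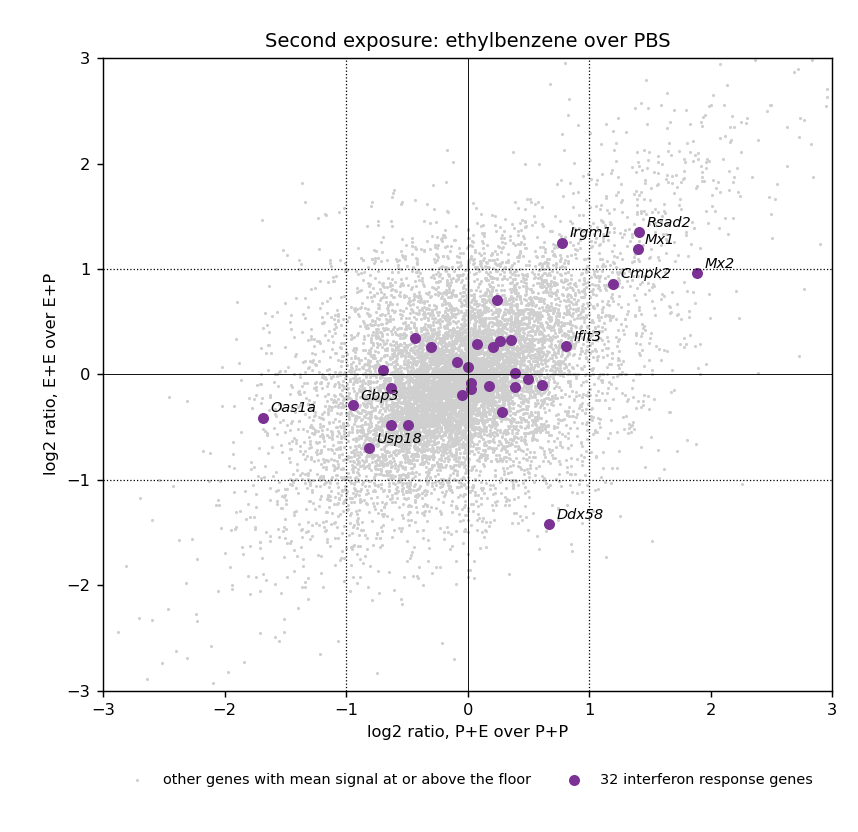
Log2 ratio of the second exposure in mice given PBS first (P+E over P+P, horizontal axis) against mice given ethylbenzene first (E+E over E+P, vertical axis) for 32 interferon response genes (purple) and for other genes with a mean signal at or above the floor (grey), of which those beyond 3 on either axis are not drawn. Dotted lines mark 2-fold, and of the interferon response genes Rsad2 and Mx1 lie past it on both axes.

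The promoters of 5 members are shown because their genes took different courses: Rsad2 and Irgm1 were higher after ethylbenzene, Cmpk2 was higher without a match, Oas1a was lower and holds matches, and Ifit1 holds matches and was not called. The sequences are from RefSeq (GRCm38.p6), 5′ to 3′ on the strand of the gene, and end at the base before its start. They lie at chr12:26456453-26456702, minus strand (Rsad2), chr11:48871421-48871670, minus strand (Irgm1), chr12:26468965-26469214, plus strand (Cmpk2), chr19:34640639-34640888, plus strand (Ifit1) and chr5:120907526-120907775, minus strand (Oas1a). Capitals mark matches, on either strand, to the core of the interferon-stimulated response element, which reads GAAA, any 2 bases and GAAA.
Rsad2: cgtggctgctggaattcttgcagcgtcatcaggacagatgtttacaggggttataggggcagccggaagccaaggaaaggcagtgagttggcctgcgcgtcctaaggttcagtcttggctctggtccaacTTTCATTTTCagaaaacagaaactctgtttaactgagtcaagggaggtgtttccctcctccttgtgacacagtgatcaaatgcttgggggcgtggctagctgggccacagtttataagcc
Irgm1: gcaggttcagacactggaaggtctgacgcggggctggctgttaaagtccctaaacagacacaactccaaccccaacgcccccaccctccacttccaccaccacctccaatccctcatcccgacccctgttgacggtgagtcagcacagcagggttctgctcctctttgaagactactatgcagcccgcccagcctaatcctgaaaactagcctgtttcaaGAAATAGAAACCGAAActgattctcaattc
Cmpk2: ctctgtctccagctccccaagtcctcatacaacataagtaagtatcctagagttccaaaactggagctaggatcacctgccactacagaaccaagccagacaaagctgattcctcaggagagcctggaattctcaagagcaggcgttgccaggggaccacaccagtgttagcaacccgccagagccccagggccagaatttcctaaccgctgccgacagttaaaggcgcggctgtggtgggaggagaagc
Ifit1: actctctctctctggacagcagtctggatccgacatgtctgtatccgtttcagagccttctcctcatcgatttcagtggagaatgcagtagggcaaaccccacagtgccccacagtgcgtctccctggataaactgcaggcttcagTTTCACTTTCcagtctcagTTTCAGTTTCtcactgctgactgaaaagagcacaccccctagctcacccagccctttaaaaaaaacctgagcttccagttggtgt
Oas1a: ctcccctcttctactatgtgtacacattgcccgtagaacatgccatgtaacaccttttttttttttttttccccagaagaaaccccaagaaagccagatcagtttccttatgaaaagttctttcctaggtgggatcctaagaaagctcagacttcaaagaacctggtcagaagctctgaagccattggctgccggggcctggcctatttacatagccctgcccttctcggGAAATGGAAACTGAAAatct

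The match in Rsad2 begins 120 bases before the start. Ifit1 holds 2 separate matches, the first 104 bases before the start. Irgm1 and Oas1a each hold 2 overlapping matches, close to the start. Windows of 250 bases were found for 27 of the 34 members and for 27025 genes in all. The core was present in 12 of the 27 (44.4%) and in 3.46% of the genes. The longer form ending in CT after the second GAAA was in 8 of the 27 (29.6%) and in 0.255% of the genes, and the gamma-activated site, TTC, any 3 bases and GAA, in 7 (25.9%) and 8.13%. A gene with several windows was counted if any of them held a match, and the longer form is a subset of the core. A match is a run of letters and does not show that a factor binds. Usp18, Mx1, Mx2, Dhx58, Iigp1, Parp14 and Rtp4 had no window in the table used. Among measured members, the 11 with the core had median log2 ratios of 0.24 and 0.12 for the second exposure, and the 14 without it 0.06 and -0.08. In mice given PBS first, 1 gene with the core was called higher and 1 lower, and 1 gene without it was called higher and none lower. In mice given ethylbenzene first, 2 with the core were higher and none lower, and none without it was higher and 1 lower. Over all genes 4.07% were called higher and 4.05% lower in the first of these ratios, and 4.28% and 4% in the second. Counts of 1 or 2 genes are too few to compare genes with and without the core. Mx1 and Mx2, which had no window, are not in this split.

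Whether a first exposure left these genes at another level 7 days later was read from E+P against P+P and from E+E against P+E, a pair without a shared array. From here the pairs of log2 ratios follow that order. In each ratio 22 of the 32 members were above 0 and 10 below, and 17 were above 0 in both (53.1%), against 22.6% of the 11182 genes. The shifts were small, with medians of 0.16 and 0.14 against 0.00 and 0.00 for all genes and -0.01 and 0.00 for those at or above the floor. The first ratio had 1 member called higher and none lower, and the second 1 higher and 1 lower. Over all genes the first ratio had 1.04% called higher and 1.25% lower, while the second had 2.03% and 1.98%. Among genes at or above the floor these shares were 1.65% and 1.9%, then 3.09% and 3%. At least 2-fold higher in both were 0.116% of them, and lower in both 0.107%.

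Dhx58 was the member called higher in both. Its signal was 33.3 for P+P, 334.8 for E+P, 141.0 for P+E and 352.2 for E+E. Both arrays of mice given ethylbenzene first stood above the floor and both arrays of mice given PBS first below it, for at least 2.35-fold and at least 2.48-fold. Its other 2 probe sets did not share this, with log2 ratios of -0.05 and 0.00 for one and 0.00 and -0.56 for the other. With the mean of all its probe sets Dhx58 was at 0.39 and 0.25, and with the raised floor at 0.00 in both. Ddx58 was the member called lower, with ratios of 0.69 and -1.39, and the second became -0.46 with the mean of its probe sets and -0.92 with the raised floor. Just inside the rule in the second ratio was Dhx58 at 1.31, and just outside it was Oasl2 at 0.98.

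The 5 guanylate-binding protein and immunity-related GTPase genes were above 0 in both ratios, with medians of 0.31 and 0.62. Gbp2 was at 0.73 and 0.74, Iigp1 at 0.47 and 0.44, Igtp at 0.31 and 0.36, Gbp3 at 0.18 and 0.82, and Irgm1 at 0.15 and 0.62. None was called, although the P+E signal of Gbp3 was below the floor, so its 0.82 is a lower bound, and it was 1.16 with the floor at the 25th percentile (43.2). The second probe set of Iigp1 gave 0.05 and 0.37, and that of Gbp2 -0.42 and 0.23. Of the other roles, Bst2 (0.39 and 0.27), Ifi35 (0.36 and 0.20) and Ifit3 (0.65 and 0.11) were above 0 in both. Irf1 was highest on E+P, at 0.81 and 0.17. Of the genes called higher after the second exposure none was called here, with Rsad2 at 0.08 and 0.02, Mx1 at -0.30 and -0.51, Mx2 at 0.46 and -0.46 and Cmpk2 at -0.44 and -0.78, besides Irgm1. Psmb9 was at -0.95 and -0.16, just short of 2-fold lower in the first, and at -1.01 there with a common 75th percentile. With the floor at the 25th percentile Ifit2 was at 1.86 and -1.56 and Mx2 at 2.18 in the first ratio.

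**Figure D3:**
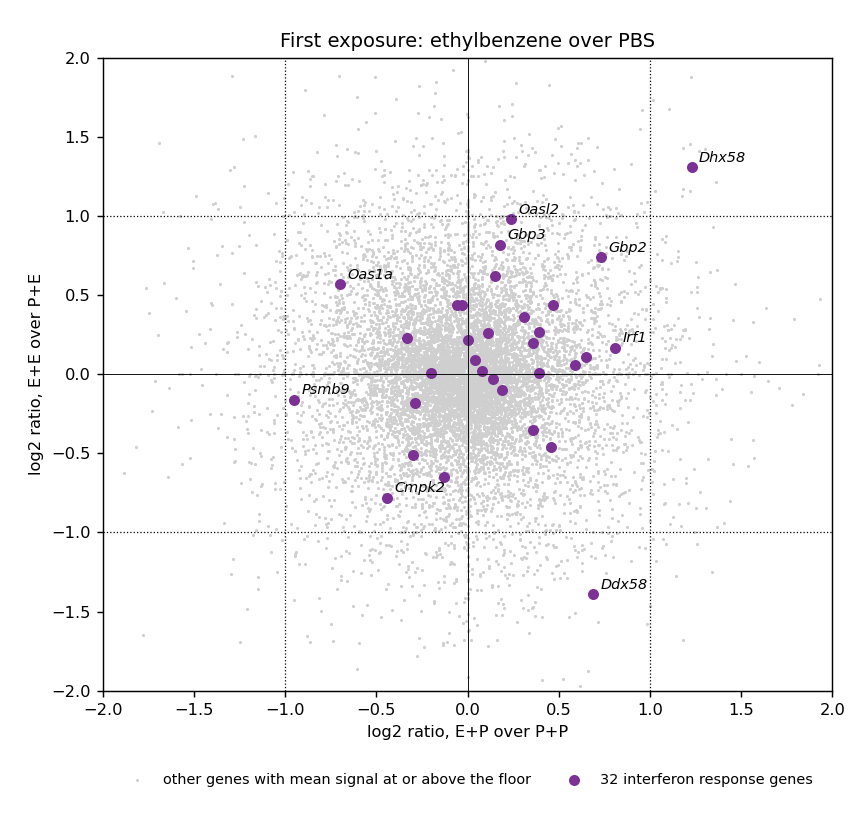
Log2 ratio of the first exposure in mice given PBS second (E+P over P+P, horizontal axis) against mice given ethylbenzene second (E+E over P+E, vertical axis) for 32 interferon response genes (purple) and for other genes with a mean signal at or above the floor (grey), of which those beyond 2 on either axis are not drawn. Dotted lines mark 2-fold, and Dhx58 lies past it on both axes while 17 of the 32 lie above 0 on both.

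The difference of the second-exposure ratios, the ratio in mice given ethylbenzene first minus that in mice given PBS first, describes whether the first exposure went with another response. It was at least 1 in size for 2 of the 32 members and for 12.9% of the 11182 genes. Over all 18194 genes it was 8.49%. The count was 5 members with the floor at the 25th percentile (29.7% of all genes) or a pseudocount (26%), through Ifit2 at -3.42 and -2.37, Mx2 at -2.65 and -2.46 and Dhx58 at -1.63 and -1.20, each with a signal below the floor on at least 1 array. Oas1a had a difference of 1.27, which became 0.14 with the raised floor. Ddx58 had one of -2.08, which became -0.67 with the mean of its probe sets. The members had a median difference of -0.01, and 16 were above 0 and 16 below. Rsad2, called in both ratios, had a difference of -0.06.

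Markers of other cells differed with both exposures, and their part in the results was not tested. In bulk liver, fewer cells of a type and less RNA per cell cannot be told apart. Kupffer cells are the macrophages of the liver. All 12 of their markers were above the floor on at least 1 array, and their summed signal was 18964 for P+P, 28687 for E+P, 16625 for P+E and 19192 for E+E. Of the 12, 11 were above 0 in E+P against P+P (median 0.65) and 10 in E+E against P+E (median 0.19), the ratios in which 22 members were above 0. In E+E against E+P none of the 12 was above 0 (median -0.48). Neutrophil markers summed to 1213, 1038, 4588 and 6869 in the same order, with 3 of 8 called higher in each second-exposure ratio and 1 called lower in P+E against P+P. The neutrophil alarmin genes S100a8 (3.40 and 3.96) and S100a9 (3.83 and 4.48) made up most of the sum on the ethylbenzene arrays. Of the granule protein genes, Ngp was at -1.06 and 1.54, Camp at -0.62 and 0.00, Ltf at -0.36 and 0.00 and Mmp8 at 0.14 and 0.72. Csf3r was at 1.96 and 0.10 and Cxcr2 at 0.00 and 0.15. Pancreatic acinar markers summed to 402.9, 247.2, 6422 and 5820, and all 7 were called higher in both second-exposure ratios.

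Other immune cells gave low signals. Of 11 T and NK cell markers, 5 were below the floor on every array (Cd3d, Cd3g, Cd2, Nkg7 and Ncr1), and the sum ran from 902.6 to 1334. Of 6 dendritic cell markers, Flt3 and Xcr1 were below it on every array, and the sum ran from 419.7 to 1020. Siglech, a marker of plasmacytoid dendritic cells, which are strong producers of type I interferon, was at 34.1 for P+P, 39.5 for E+P, 148.5 for P+E and 45.4 for E+E. The 4 B cell markers summed to between 797.6 and 1051. Sinusoidal endothelial markers summed to between 10094 and 12776. In P+E against P+P 6 of 8 were below 0 (median -0.33), with Kdr (-1.01) called lower and Lyve1 (2.63) higher. In E+E against E+P 7 were below 0 (median -0.66), with Gpr182 (-1.18) and Fcgr2b (-1.03) called lower and Lyve1 (3.71) higher. Kdr was at -0.98 there. Stellate cell markers summed to between 14716 and 18380. Of 8 measured, 4 were above 0 in E+P against P+P (median -0.00) and 7 in E+E against P+E (median 0.55). The 8 hepatocyte markers summed to between 864297 and 918717. Of them only Apob was called in any ratio, higher in P+E against P+P (1.16) and in E+P against P+P (1.57). Its signal was 27987 for P+P, 82975 for E+P, 62547 for P+E and 78771 for E+E.

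The interferon genes themselves were near background. Of 9 measured, 5 were below the floor on every array, Ifnb1 and Ifng among them, so the floor set their ratios to 0.00. None of the 9 was called in any ratio. Ifna1 (186.6), Ifna5 (171.8) and Ifnab (146.6) were above the floor on E+E only. Ifna2 was above it on every array, at 329.2 for P+P, 267.8 for E+P, 465.3 for P+E and 402.0 for E+E. Its second-exposure ratios were 0.50 and 0.59. Low signals do not show that the genes were silent, and probe sets of this family can share signal.

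Of 6 receptor genes, Ifnlr1, for the type III receptor, was near the floor, at 109.9 for P+P, 143.5 for E+P, 104.9 for P+E and 151.2 for E+E. The others were above it on every array, and Il10rb was at -0.57 and -0.37. Ifnar1, for the type I receptor, was at 876.7 for P+P, 803.2 for E+P, 442.8 for P+E and 538.4 for E+E, or -0.99 and -0.58 for the second exposure. The other probe set of Ifnar1 gave -0.23 and 0.22. Ifngr2 was at -0.69 and -0.58, with a second probe set at -1.25 and 0.02. Ifnar2 was at -0.02 and -0.19, although its 2 other probe sets gave 0.91 and 2.23, and 1.09 and 0.59. Ifngr1 was at 0.11 and -1.23. Tyk2, a kinase of the type I receptor, was at -1.69 and -0.52, with a second probe set at 0.36 and -0.48.

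Genes that damp or relay the signals did not share a direction. Ptpn2, which encodes a phosphatase that turns off JAK and STAT proteins, was at 1045 for P+P, 833.2 for E+P, 4238 for P+E and 5231 for E+E. Its second-exposure ratios were 2.02 and 2.65, and its other probe sets gave 2.36 and 2.51, 1.12 and 0.69, and 0.00 in both, the last below the floor on every array. Myd88, the adaptor of most Toll-like receptors and of the interleukin 1 receptor, was at 1.26 and 1.63. Socs1, a feedback inhibitor, was at -0.26 and 0.81, with a signal below the floor on 2 arrays, and the phosphatase gene Ptpn6 at -0.03 and -0.43.

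Of 109 measured pathway genes that are not members, P+E against P+P had 6 called higher and 3 lower, and E+E against E+P had 4 and 6. Over all genes the shares were 4.07% higher and 4.05% lower, then 4.28% and 4%. The 109 genes had medians of 0.00 and 0.00. Called higher in both were Ptpn2, Myd88 and Ifi47 (1.37 and 1.43), an immunity-related GTPase gene like Irgm1. Called lower in both was Ifi27l2a (-1.07 and -1.07). The chemokine gene Cxcl10 was at 1.19 and 0.55, and Uba7, which activates ISG15, at -0.77 and -0.99. Of the other probe sets of Uba7, one gave -0.84 and -1.29 and one 0.23 and 0.11. Sp100, a nuclear body gene, was at -0.71 and -0.95.

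For the first exposure 2 of the 109 were called higher and none lower in the first ratio. The second ratio had 1 higher and 4 lower, with none the same way in both. Over all genes the shares were 1.04% higher and 1.25% lower, then 2.03% and 1.98%. The 109 genes had medians of 0.03 and 0.00. The highest by the mean of both ratios were Zbp1 (1.27 and 0.36), Eif2ak2 (0.31 and 1.09), Isg20 (0.74 and 0.60) and Slfn5 (0.70 and 0.57). The lowest were Trim12c (-0.81 and -1.50), Irf5 (-0.72 and -0.59), Gbp6 (0.05 and -1.17) and Cxcl10 (-0.14 and -0.78). Other probe sets of Eif2ak2 gave -0.03 and 0.16, and 0.05 and -0.67. Those of Zbp1 (-0.63 and 0.00), Trim12c (0.00 and 0.72), Irf5 (0.19 and 0.37) and Gbp6 (0.91 and 0.85) did not have the same signs.

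**Figure D4:**
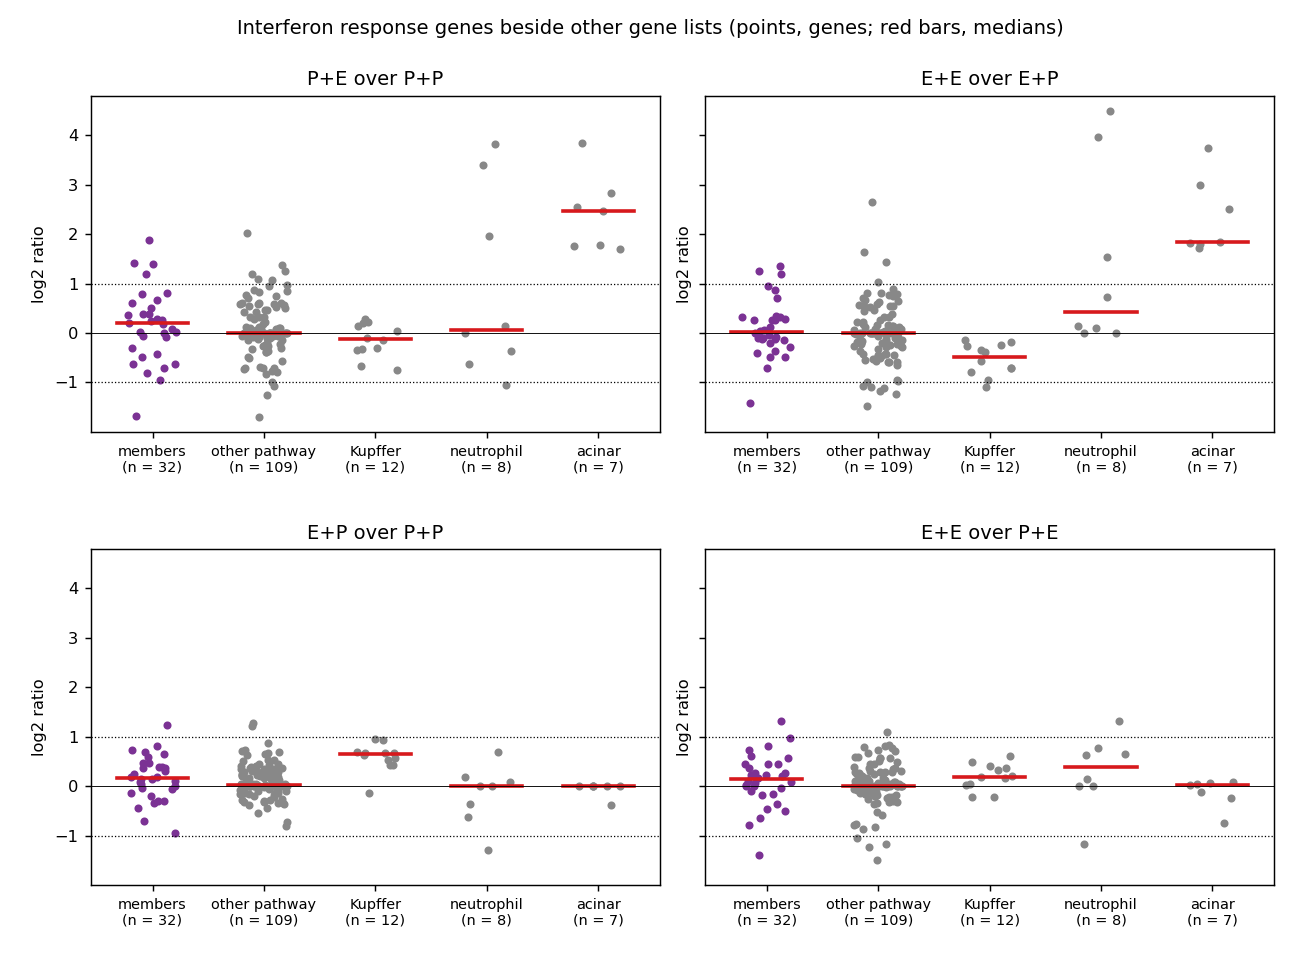
Log2 ratios of single genes (points) with the median (red bars) for the 32 interferon response genes, 109 other genes of the interferon pathway, and markers of Kupffer cells, neutrophils and pancreatic acinar cells, in 1 panel for each ratio, with dotted lines at 2-fold. The members spread around 0 in every panel, with medians between 0.03 and 0.20, while all 7 acinar markers lie above 2-fold in the upper panels.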

How the data were processed

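Per the labels, each group's pooled liver RNA was hybridised to 1 Affymetrix array. The authors deposited 1 linear signal intensity per probe set for 45101 probe sets, each array scaled to a 2% trimmed mean of 500.0, as read from the values. The software behind these values is not given in the sources used here. Array medians differed by up to 0.24 on the log2 scale, so the 4 arrays were quantile-normalized. Signals below the median, 142.3, were set to it, and log2 ratios were taken. No gene was filtered out.

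GEO's platform annotation gave 1 gene to 34958 probe sets, several to 932 and no name used here to 9147, and 64 were controls. Symbols were updated through RefSeq for 34754, and only names were taken from that table. Each gene took its probe set of highest mean signal. The members and the lists of pathway genes and markers were chosen with earlier results of these data known. All measured members are named with their signals. Of the other pathway genes, up to 4 highest and 4 lowest by mean ratio are named for each exposure, besides interferons, receptors and Socs1. The neutrophil and endothelial markers, Ptpn6 and Siglech were chosen after their values were seen. Steps were tested on simulated data (python 3.11.15, pandas 2.3.3, numpy 2.4.6, matplotlib 3.10.9). Alternatives changed the scaling, the floor, the choice of probe set and the size called.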

Additional observations from a re-analysis of the deposited data

Results flagged for a closer look

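For Ddx58, the gene of the RNA sensor RIG-I, the second-exposure ratios had opposite signs, 0.67 in mice given PBS first and -1.42 in mice given ethylbenzene first. The difference, ethylbenzene first minus PBS first, was -2.08 on the log2 scale. It rests on 1 array of pooled RNA per group and was not tested. Of its other probe sets, one gave -0.96 and -0.90, with no such difference, and one was below the floor on every array.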

How the results depend on the processing

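No paired analysis was possible because each group has 1 array, and for the same reason no replicate could be left out. Pairs of values give the second exposure as PBS first, then ethylbenzene first, and the first exposure as PBS second, then ethylbenzene second. With a size of 1.5-fold the members called higher became 8 and 6 for the second exposure (9.9% and 10.6% of all genes) and 6 and 5 for the first (5.14% and 7.6%), and those called lower 6 and 2 (11.6% and 11%), and 2 and 3 (5.97% and 7.38%), with 8 differences of that size (22.7%). With the floor at the 25th percentile, 3 and 2 were higher for the first exposure (8.12% and 10.2%), and 2 were lower in each ratio but E+P against P+P (12%, 11.7% and, for E+E against P+E, 10.5%). A pseudocount of 43.2 in place of a floor gave 3 higher in E+P against P+P (6.69%) and again 2 lower in each ratio but that one (9.92%, 9.84% and 8.63%). In P+E against P+P, that floor and the pseudocount added Dhx58 (1.71 and 1.27) and Ifit2 (1.75 and 1.26) to the members called higher. Of all genes 12.2% and 10.4% were called higher there. Under these 2 settings 5 differences of the second-exposure ratios reached 2-fold. That of Dhx58, 0.07 as first processed, changed sign, to -1.63 and -1.20. With the mean of all probe sets the difference of Dhx58 was -0.15. With the floor at the 75th percentile 1 was higher in P+E against P+P (1.87%) and 0 were higher for the first exposure (0.148% and 0.187%). That floor left 0 lower for the second exposure (1.28% and 1.4%) and for the first (0.126% and 0.121%). It left 1 difference of 2-fold (1.3%), and the first-exposure medians became 0.00 and 0.01. The mean of all probe sets left 0 higher for the first exposure (0.577% and 0.901%), 0 lower in both E+E ratios (2.3% and 0.94%) and 1 difference (4.42%). Probe sets with plain IDs, which 23 of the members have, left 2 higher in P+E against P+P (3.89%), and scaling to a common 75th percentile gave 1 lower in E+P against P+P (1.3%). Without the P+P array in the normalization, an alternative chosen after seeing the data, no count in the E+E ratios moved by over 1.5 times. Signals near background limit what can be read for Mx1, Mx2, Cmpk2, Dhx58, Gbp3 and Ifit2. The P+E signals of Oas1a (143.5) and Gbp2 (146.8) were just above the floor, which limits these genes as well.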

Other observations

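Samhd1 and Gbp2 were, like Ddx58, Dhx58, Stat2 and Ifi35, members whose probe sets gave different courses. Samhd1 was represented by a probe set with second-exposure ratios of -0.30 and 0.26. Of its other probe sets, one gave 1.04 and 0.66, one 0.65 and 1.03 and one 0.40 and -0.61, and the last was below the floor on every array. The Gbp2 probe set used gave -0.49 and -0.48 and the other 0.43 and 1.07. Which transcripts each probe set detects was not tested.

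Genes of MHC class I presentation outside the members stayed within 2-fold. Of 9 measured, 4 were above 0 after ethylbenzene in mice given PBS first (median -0.14) and 1 in mice given ethylbenzene first (median -0.28).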
